A study of Mus musculus with 6 samples.

Results

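In the pool of sorted tumor T cells, 163 of 12818 cells held transcripts of both coreceptors, a share of 1.27% (95% exact binomial interval 1.08 to 1.48). These double-positive cells were selected on measured unique molecular identifiers (UMIs, 1 for each captured transcript), namely at least 1 Cd4 UMI, at least 1 UMI of Cd8a or Cd8b1 and 0 Foxp3 UMIs. The name refers to transcripts and not to the proteins. They were compared with 1205 Cd4-only cells, which had a Cd4 UMI and none of Cd8a, Cd8b1 or Foxp3, and with 4497 Cd8-only cells, which had a Cd8a or Cd8b1 UMI and none of Cd4 or Foxp3. Double-positive cells made up 2.78% (2.37 to 3.23) of these 5865 gated cells.

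Single TCRβ+ T cells were sorted on day 16 from B16-F10 melanomas, a transplantable mouse tumor line grown under the skin, and sequenced from the 5′ end of the transcripts on the 10x platform. All hosts were Foxp3-EGFP-DTR mice, in which regulatory T (Treg) cells carry the diphtheria toxin receptor, and the labels give 3 samples from animals treated with PBS and 3 from animals treated with diphtheria toxin (DTx). The study's methods place the injections on days 7, 9, 11 and 13, and give mice of 8 to 14 weeks for the experiments as a whole. How many animals each sample held is not given in the labels. The deposited table numbers its 6 libraries without linking them to a sample, so the libraries were described 1 by 1, no value was assigned to PBS or DTx, and no difference between the treatments was tested.

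CD4 and CD8 are coreceptors that bind MHC class II and class I, respectively, and deliver the kinase Lck to the T cell receptor. Thymocytes pass through a stage with both and then keep 1 of them, with the factor ThPOK (Zbtb7b) maintaining the helper lineage and Runx3 the cytotoxic lineage. CD8 is found on the cell surface as a dimer of CD8α and CD8β or of CD8α alone, the latter on some intraepithelial and activated lymphocytes. A mature T cell usually expresses 1 rearranged T cell receptor β chain, which makes the V segment of that chain (a Trbv gene) useful for counting how many receptors a droplet held.

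The coreceptor genes lie on mouse chromosome 6 and are protein coding. In GRCm38, Cd4 spans chr6:124864692-124888221 on the minus strand, Cd8a spans chr6:71373427-71379173 and Cd8b1 spans chr6:71322788-71337494, both on the plus strand. The values of these genes chose the cells and are given as a description. Of the 163 cells, 123 held 1 Cd4 UMI, 26 held 2 and 14 held 3 or more, with a highest value of 5. The Cd8a and Cd8b1 UMIs together had a median of 3 and a highest value of 18, and 38 cells held 1. Thus most cells entered the gate through a single Cd4 UMI. At unequal depth, 78.3% of Cd4-only cells held 1 Cd4 UMI against 75.5% of double-positive cells. Per 1000000 UMIs, Cd4 stood at 305, 410, 289, 318 and 289 in double-positive cells of libraries 1, 3, 4, 5 and 6. Cd4-only cells of these libraries had 752, 1072, 450, 484 and 765. Cd8a and Cd8b1 were likewise lower than in Cd8-only cells of each of these libraries. These levels were not matched for depth. The gates require a coreceptor UMI in each cell and double-positive cells were deeper, so the lower levels do not show lower expression. At the edge of the rule, 31 cells held exactly 1 Cd4 and 1 Cd8 UMI, 33 held 2 or more of each, and 5 cells were kept out by a Foxp3 UMI. Both Cd8 chains were found in 85 cells, Cd8b1 alone in 62 and Cd8a alone in 16, or 9.82% against 12.1% of Cd8-only cells.

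Double-positive cells were spread unevenly over the libraries. Libraries 1 to 6 held 23, 1, 12, 39, 46 and 42 of them, or 1.08%, 0.0379%, 0.529%, 2.21%, 2.32% and 2.07% of their cells. Libraries 4 to 6 thus had the highest shares, with intervals from 1.49 to 3.08% that did not overlap those of libraries 2 and 3, while those of libraries 4 and 6 overlapped that of library 1 (0.688 to 1.62%). Library 2 stood apart with 1 double-positive cell among 1038 gated cells (0.0963%, 0.00244 to 0.536), although it held 151 Cd4-only and 886 Cd8-only cells. The median depth of all its cells, 1064 UMIs, was close to the 1065 of library 1. Its Cd8-only cells held 1166 Ccl5 UMIs per 1000000 UMIs (CPM), against 9729 to 13333 CPM in the Cd8-only cells of the other libraries. In all, 76 barcodes occurred in 2 libraries, which involved 152 cells and 2 double-positive cells.

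**Figure D1:**
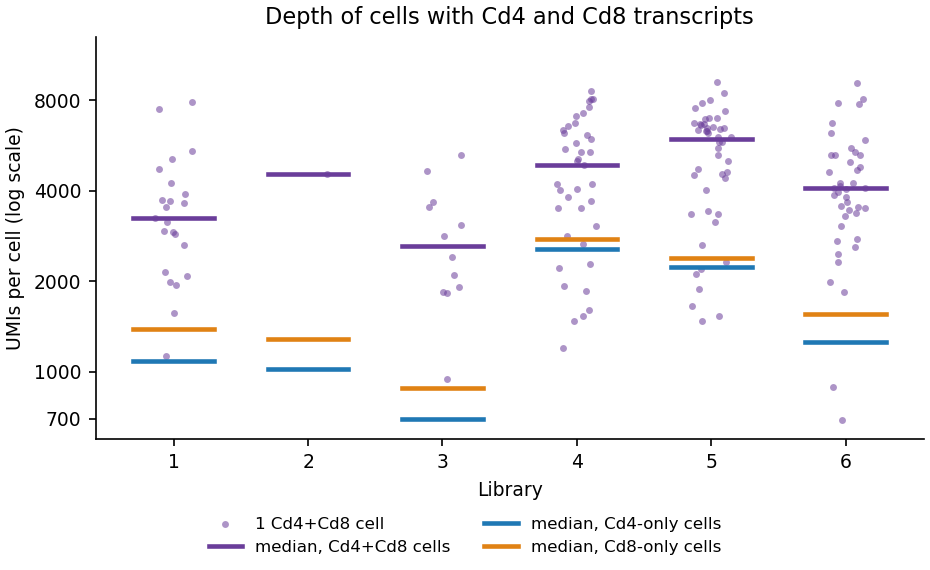
UMIs per cell on a log scale for each library. Points are the 163 double-positive cells, with lines at the medians of double-positive, Cd4-only and Cd8-only cells, and the double-positive median lies highest in every library, from 2615.5 to 5930.5 UMIs where at least 12 cells were found.

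Double-positive cells were deeper than either single gate in each library. Their median was 4223 UMIs and 1579 genes, against 1622 UMIs and 765 genes in Cd4-only and 1708 UMIs and 750 genes in Cd8-only cells. In libraries 1, 3, 4, 5 and 6 the double-positive median was 3236, 2615.5, 4874, 5930.5 and 4071 UMIs, which was 1.91 to 3.76 times the Cd4-only median and 1.76 to 2.96 times the Cd8-only median of the same library. Set against the sum of the Cd4-only and Cd8-only medians, it was 0.915 to 1.66. The authors kept cells with 200 to 2500 genes, and 34 double-positive cells (20.9%) held 2000 genes or more, compared with 4.15% of Cd4-only and 2.85% of Cd8-only cells. The mitochondrial share was 0.731% at the median, against 0.811% and 0.926%.

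Detection of both coreceptors followed depth. Among cells with a Cd8 transcript, the share that also had Cd4 was 0.392% (0.0809 to 1.14) under 1000 UMIs, 3.73% (2.80 to 4.87) from 2000 to 4000 UMIs and 14.2% (11.4 to 17.3) from 4000 to 8000 UMIs. Among cells with Cd4, the share that also had Cd8 was 1.01% (0.208 to 2.91), 13.1% (9.94 to 16.8) and 38.2% (31.6 to 45.1) in the same ranges. The shares rose at each step up to 8000 UMIs, above which only 8 double-positive cells were found and the intervals overlapped those of the range below. If Cd4 and Cd8 had been detected independently of each other within a library and depth bin, 599 cells would have held both, so that the 163 found (139 to 190) were 0.272 of this number. The ratio was 0.0209 in library 2 and ran from 0.223 to 0.394 in the others. Double-positive cells were therefore rarer than independent detection gives and more frequent in deep cells. Ratios, called genes and values named as matched or expected below were computed within libraries and bins of 0.5 log2 units of depth, and levels in CPM, UMI means and plain shares of cells were not. The UMIs of a gene in double-positive cells were set against those that equal depth in single-gate cells of the same bins would give, as a ratio over 138 cells with counterparts in both gates. The other 25 cells had none in at least 1 gate and were deep, with a median of 5276 UMIs.

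**Figure D2:**
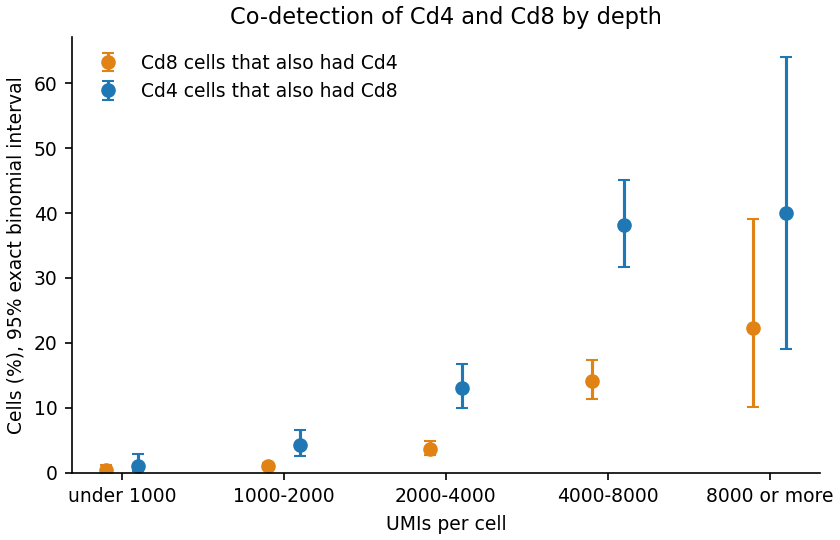
Share of Cd8 cells with a Cd4 UMI and of Cd4 cells with a Cd8a or Cd8b1 UMI, by UMIs per cell, with 95% exact binomial intervals. Both shares are near 1% or less under 1000 UMIs and reach 14.2% and 38.2% between 4000 and 8000 UMIs.

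Genes of both lineages were found in the double-positive cells. Of the 14 CD4 lineage genes, 8 were at least 2-fold higher than in Cd8-only cells, where 4.18% of all 9621 genes were called higher and 7.2% lower, and 0 were lower. Against Cd4-only cells, 0 of the 14 were higher and 3 were at least 2-fold lower, where 3.91% of 7795 genes were called higher and 6.03% lower. Of the 16 CD8 lineage and cytotoxic genes, 12 were at least 2-fold higher than in Cd4-only cells and 0 were lower, while 1, the chemokine gene Xcl1, was lower than in Cd8-only cells. The log2 ratio of Xcl1 to Cd4-only cells, 1.66, was 3.91 without library 1 and 0.83 without library 5. Its log2 ratio to Cd8-only cells, −1.14, was −0.84 without library 1, where 0 genes of the list were called lower, and 2 were called lower without library 5. The median log2 ratio of the CD4 list was 1.25 against Cd8-only and −0.55 against Cd4-only cells, and that of the CD8 list was 1.70 against Cd4-only and −0.41 against Cd8-only cells. Over all genes tested the medians were −0.035 against Cd4-only and 0.0087 against Cd8-only cells. Leaving out 1 library at a time gave 7 to 11 called CD4 genes against Cd8-only and 10 to 12 called CD8 genes against Cd4-only cells. Genes are called here by size alone, since cells of 1 library are not replicates, and intervals on ratios cover counting error of UMIs only.

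Cd40lg, the ligand with which helper T cells activate B cells and dendritic cells, was above the Cd8-only level in each of 5 libraries. Its level in double-positive cells was 305, 235, 470, 182 and 200.3 CPM in libraries 1, 3, 4, 5 and 6. It was 342, 423, 489, 378 and 479 CPM in Cd4-only cells and 29.3, 92.8, 85.3, 49.5 and 49.5 CPM in Cd8-only cells. The double-positive level in CPM, not matched for depth, thus lay between the single gates in each of the 5 libraries. At matched depth it was 3.53 times the number expected from Cd8-only cells (2.84 to 4.39), higher in 5 of 5 libraries. It was 0.884 times that from Cd4-only cells (0.729 to 1.07), higher in 2 and lower in 3 libraries. By cells, 44.9% held a Cd40lg UMI (36.5 to 53.6), where 63.1% were expected from Cd4-only cells. For Cd8-only cells, 49.1% were found (41.2 to 57.0) and 15.3% were expected. Maf, a transcription factor of helper and cytokine-producing T cells, was 3.66 times as abundant as in Cd8-only cells (2.71 to 4.93, 4 of 5 libraries) and 0.726 times as abundant as in Cd4-only cells (0.550 to 0.952). Without library 5 its log2 ratio to Cd8-only cells was 1.24 instead of 1.85. Gata3, the factor of type 2 helper cells, was 2.0006 times as abundant as in Cd8-only cells (1.57 to 2.53, 5 of 5 libraries) and was not called, since 0.5 UMIs were added to both sides before the log2 ratio of 0.99 was taken.

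Other CD4 lineage genes differed in how far they lay from each gate. Tnfrsf4, the costimulatory receptor OX40, stood at 122, 264, 349, 425 and 401 CPM in double-positive cells of libraries 1, 3, 4, 5 and 6, against 702, 513, 776, 951 and 878 CPM in Cd4-only and 88.7, 96.5, 82.6, 99.8 and 193 CPM in Cd8-only cells. In CPM, again no library had the double-positive level outside the single gates. At matched depth the ratio was 0.342 against Cd4-only cells (0.292 to 0.400), lower in 5 of 5 libraries. Against Cd8-only cells it was 2.502 (2.09 to 2.996), higher in 4 libraries and lower in 1. Izumo1r, the folate receptor 4 gene of helper and regulatory T cells, gave 0.286 (0.159 to 0.486) and 2.37 (1.21 to 4.51), and Il1rl1, the receptor of IL-33, gave 0.684 (0.416 to 1.09) and 2.73 (1.56 to 4.73). Zbtb7b was seen with only 5 UMIs in 5 cells, and its ratios of 0.446 to Cd4-only (0.130 to 1.24) and 1.62 to Cd8-only cells (0.458 to 4.70) had 1 in their intervals, while its log2 ratio to Cd4-only cells of −1.09 was −2.31 without library 4. Of the remaining members, the costimulatory receptors Icos and Tnfrsf18 were at 1.57 and 1.92 times the Cd8-only expectation, the inhibitory receptor Ctla4 at 1.22 times and the IL-2 receptor chain Il2ra at 0.885 times. Against Cd4-only cells Icos was at 0.984 (0.855 to 1.13), Tnfrsf18 at 0.673, Ctla4 at 0.763 and Il2ra at 0.521.

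Within the CD4 lineage list, the type 2 cytokine genes had the largest ratios to Cd8-only cells, from few cells. Il13 had 82 UMIs in 14 cells, or 8.59% of double-positive cells (4.78 to 13.99), against 5.39% of Cd4-only (4.19 to 6.82) and 0.311% of Cd8-only cells (0.170 to 0.522). Libraries 4, 5 and 6 held all of them, with 58, 9 and 15 UMIs. At matched depth Il13 was 35.6 times the Cd8-only expectation (21.02 to 63.5) and 0.558 times the Cd4-only expectation (0.417 to 0.740), with log2 ratios to Cd8-only cells of 4.85 in all libraries and 3.19 without library 4. Without that library its log2 ratio to Cd4-only cells was −2.14 instead of −0.84. Il4 had 82 UMIs in 20 cells and log2 ratios to Cd8-only cells of 2.44, or 1.496 without library 4 and 3.01 without library 5. Il5 had 44 UMIs in 7 cells, and its log2 ratio of 4.64 was 3.83 without library 6, 4.05 without library 4 and 5.27 without library 3. Of the 14 cells with Il13, 10 also held a UMI of the chemokine gene Ccl5, which was 6.13% of double-positive cells (2.98 to 10.99). Such pairs were found in 0.830% of Cd4-only (0.399 to 1.52) and 0.200% of Cd8-only cells (0.0916 to 0.380). At matched library and depth, 3.24% were expected from Cd4-only cells, where 5.797% were found (2.54 to 11.1), so an excess over them was not detectable. For Cd8-only cells, 6.13% were found and 0.596% were expected.

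**Figure D3:**
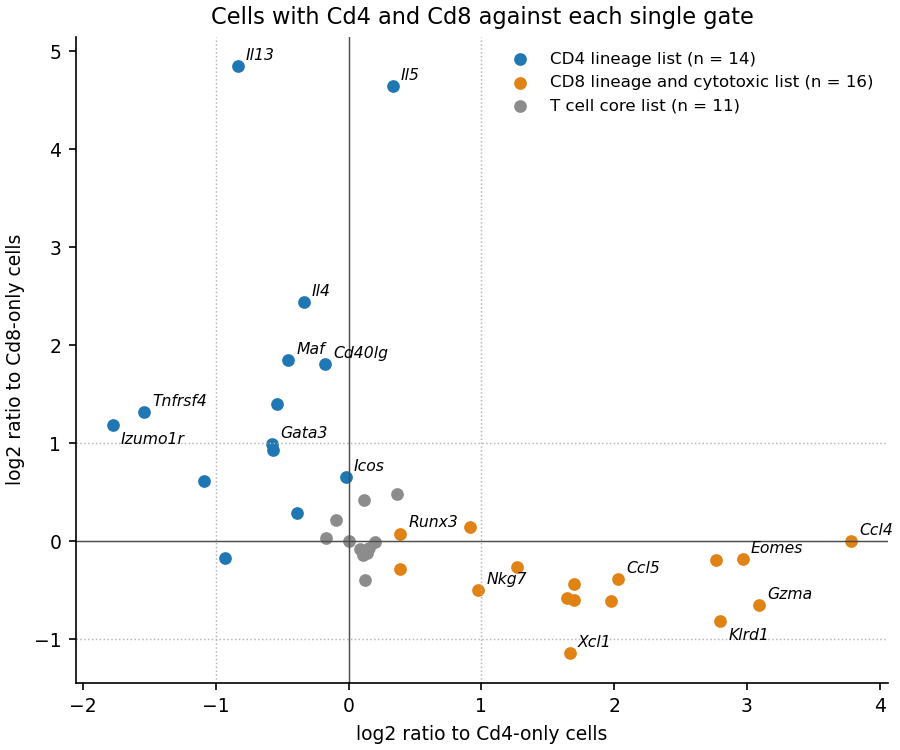
Log2 ratio of double-positive cells to Cd4-only cells (horizontal) and to Cd8-only cells (vertical) at matched library and depth, 1 point per gene, with dotted lines at 2-fold. The 14 CD4 lineage genes lie mainly at upper left and the 16 CD8 lineage genes at lower right, so that most sit between the single gates, and the 11 T cell core genes lie within 2-fold of both.

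On the cytotoxic side, Ccl5 stood at 7219, 11785, 4335, 4803 and 4396 CPM in double-positive cells of libraries 1, 3, 4, 5 and 6. The levels were 3994, 4007, 818, 1078 and 1607 CPM in Cd4-only cells and 13333, 13331, 11010, 9729 and 10232 CPM in Cd8-only cells. Double-positive cells were between the gates in each of these libraries, at 4.09 times the Cd4-only (3.84 to 4.36) and 0.764 times the Cd8-only expectation (0.736 to 0.793). Without library 1 the log2 ratio to Cd4-only cells was 2.76 instead of 2.03. Klrd1, the CD94 chain of the NKG2 receptors, was at 256, 176, 295, 384 and 289 CPM, against 76.1, 45.3, 96.2, 107 and 73.2 CPM in Cd4-only and 346, 246, 804, 703 and 575 CPM in Cd8-only cells. It too lay between the gates in 5 of 5 libraries, with ratios of 7.06 (5.33 to 9.44) and 0.568 (0.487 to 0.661).

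Granule genes lay between the gates over the matched libraries together, as Klrd1 did, but not in every library. The ratio to Cd4-only cells was 8.57 for granzyme A (Gzma, 7.36 to 10.0), 3.13 for granzyme B (Gzmb, 2.68 to 3.67), 3.28 for granzyme K (Gzmk, 2.26 to 4.83) and 3.56 for perforin (Prf1, 1.10 to 14.9). Against Cd8-only cells the same genes were at 0.636 (0.592 to 0.682), 0.669 (0.606 to 0.736), 0.740 (0.593 to 0.915) and 0.652 (0.332 to 1.18). Each was lower than Cd8-only cells in 4 libraries and higher in 1. Gzma and Gzmb were higher than Cd4-only cells in 5 libraries, and Gzmk and Prf1 in 4 with 1 lower. Without matching, Gzmb stood above Cd8-only cells in library 1 (293 against 244 CPM) and library 3 (557 against 371 CPM). Gzma was concentrated in libraries 4, 5 and 6, at 1152, 2339 and 1797 CPM, and reached 110 and 87.9 CPM in libraries 1 and 3, where Cd8-only cells themselves had 101 and 180 CPM. The NK and T cell granule protein gene Nkg7 was in 148 of the 163 cells and at 1.97 times the Cd4-only expectation (1.76 to 2.197, 5 of 5 libraries). Ccl4, a chemokine gene of activated CD8+ T cells, was higher than in Cd4-only cells in all 5 libraries, at 13.99 (10.6 to 18.7), and a ratio to Cd8-only cells of 1.0014 (0.904 to 1.11), but it was lower than Cd8-only cells in 4 of 5 libraries. Without library 5 its log2 ratio to Cd4-only cells was 3.005 instead of 3.79, and without library 1 it was 4.47. Eomes, a factor of effector and memory CD8+ T cells, was at 9.26 times the Cd4-only expectation from 26 UMIs (3.43 to 31.2), and Runx3 was at 1.31 times (1.05 to 1.64, 5 of 5 libraries).

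The genes shared by all T cells did not separate the gates. None of the 11 T cell core genes, which encode the CD3 and receptor constant chains, Lck, CD2, CD28 and Thy1, passed 2-fold against either gate. Their summed level was 6035 CPM, against 6028 CPM in Cd4-only and 6257 CPM in Cd8-only cells. Cd3e, with ratios of 1.15 to Cd4-only (1.04 to 1.27) and 0.998 to Cd8-only cells (0.916 to 1.09), was typical of them. The costimulatory receptor Cd28 was slightly above both gates, at 1.29 (1.08 to 1.53, 4 of 5 libraries) and 1.40 (1.21 to 1.61, 5 of 5 libraries).

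The position between the gates was also counted beyond these lists, in tested genes with at least 100 UMIs over the matched double-positive and single-gate cells. Of the 157 genes at least 2-fold higher in Cd8-only than in Cd4-only cells of the matched bins, 110 (70.1%) had a double-positive level between the gates, 39 were above the Cd8-only level and 8 below the Cd4-only level. Of the 183 genes at least 2-fold higher in Cd4-only cells, 152 (83.1%) were between, 19 were above the Cd4-only level and 12 below the Cd8-only level. Over all 7774 genes tested against both gates, without the minimum of 100 UMIs, 29.2% were between. For the genes of the Cd8-only side, the median log2 ratio of double-positive cells was 1.05 to Cd4-only and −0.39 to Cd8-only cells, and for those of the Cd4-only side it was −0.67 to Cd4-only and 0.71 to Cd8-only cells. These genes were chosen on the same single-gate cells that served for the ratios, so the counts are a description. A gap of at least 2-fold leaves more room between the gates, so the 29.2% over all genes is no baseline for these shares.

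The genes furthest beyond both gates had few UMIs. At least 1.5-fold above both were 335 of the 7774 genes (4.31%) and at least 1.5-fold below both were 536 (6.89%). The genes furthest above both were Dcaf6 (11 UMIs), Spp1 (24 UMIs), Gm36551 (21 UMIs), Sumf1 (10 UMIs) and Muc1 (9 UMIs). All 24 UMIs of Spp1, which encodes osteopontin, came from 1 cell, the log2 ratio of Gm36551 to Cd8-only cells was 0.75 without library 5 instead of 1.85, and Muc1 was higher than Cd4-only cells in 1 library and lower in 2. None of the 10 genes that led this group had more than 24 UMIs. Those furthest below both were Bysl (3 UMIs in all double-positive cells), Gzmf (1 UMI) and Trav14-2 (0 UMIs). The 20 Gzmf UMIs of Cd4-only cells came from 3 cells. With at least 50 UMIs required per gene, the number of genes beyond both fell from 871 to 349.

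Genes that defined the contrasts by size are named by the same rule. After Ccl4 and Gzma, the genes highest against Cd4-only cells and higher in all 5 libraries were Eomes, Trbv16, Klrd1, the surface antigen gene Ly6c2 (6.37, 5.35 to 7.63), Fbxl20 (4.83, 1.87 to 14.3), Ccl5, the activating receptor gene Klrk1, which encodes NKG2D (4.04, 2.25 to 7.76), and Calhm6 (3.35, 1.56 to 7.67). The V segment Trbv16 had a log2 ratio of 2.92 that became 2.13 without library 4 and 3.51 without library 6. Among genes lower than Cd4-only cells in all 5 libraries, the lowest was Tox2 (0.111, 0.0130 to 0.436), a factor of follicular helper and dysfunctional T cells. This group included Il1r2, the decoy receptor of IL-1 (0.168, 0.0813 to 0.314), and the matricellular gene Ccn4 (0.194, 0.0363 to 0.673). The log2 ratio of Tox2 of −2.88 ran from −3.52 without library 6 to −2.18 without library 4, and that of Il1r2 of −2.52 from −3.55 without library 5 to −1.77 without library 4. Among genes higher than Cd8-only cells in all 5 libraries, the highest was Tnfsf8, the ligand of CD30 (4.20, 2.37 to 7.34). It was followed by Ramp1, a receptor component for calcitonin gene-related peptide (3.84, 2.05 to 7.003), Cd40lg and Tmem64 (3.39, 2.51 to 4.55). Next were the stress-induced factor Atf3 (3.22, 2.05 to 5.02) and Tnfsf11, which encodes RANKL (2.90, 1.76 to 4.74). Without library 4 the log2 ratio of Atf3 was 1.04 instead of 1.64. The lowest among genes lower than Cd8-only cells in all 5 libraries was Fcer1g, a signaling adaptor of NK cells and myeloid cells. It had 0 UMIs in the matched cells against 14.4 expected (ratio up to 0.266).

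Genes of other double-positive or unconventional T cells were next examined. Of the thymic list, 8 of 11 genes were in the table and Rag1, Rag2 and Arpp21 were not analysed here. Dntt and Cd24a had 0 UMIs in double-positive cells, which allows up to 4.13 CPM, and Ptcra, the pre-T cell receptor chain of thymocytes, and Aqp11 had 1 UMI each. Cd4-only cells had 0.383 CPM of Dntt and 1.15 CPM of Cd24a, and Cd8-only cells 0.202 and 1.42 CPM, so a difference from them was not detectable at this depth. The factor Satb1 and the signaling protein gene Themis, which mature T cells also express, gave 108 and 60 UMIs, with ratios to Cd4-only cells of 0.711 (0.545 to 0.921) and 0.541 (0.376 to 0.770), and were not called. Of the list for CD8αα intraepithelial cells, 2 of 4 tested genes were called higher than Cd4-only cells (Cd160 and Gpr55, against 3.91% of all genes) while against Cd8-only cells 0 of 7 were called higher and 2 lower (Fcer1g and Klrb1c, against 7.2% of all genes). Of the list for γδ and NKT cells, 0 genes could be tested against Cd4-only and 4 against Cd8-only cells, with 1 called lower (Klrb1c again). Trdc, the constant region of the γδ T cell receptor, and the NKT cell factor Zbtb16 had 0 UMIs. At 0 of 163 cells, the limit for cells with a Trdc UMI, taken as 3 of 163 cells, was 1.84%.

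Transcripts of non-T cells were scarce by summed level. The summed level was 49.6 CPM for the 4 B cell genes in the table (55.9 in Cd4-only and 96.0 in Cd8-only cells), 46.8 CPM for 6 dendritic and MHC class II genes (58.6 and 60.1), 13.8 CPM for 4 myeloid genes (1.53 and 18.7), 16.5 CPM for 5 NK cell genes (2.30 and 38.1) and 17.9 CPM for 3 stromal and endothelial genes (30.6 and 23.3). The 6 melanoma genes and Hba-a1 of the erythroid list had 0 UMIs, and so did Cd79a, Csf1r, Apoe, H2-Ab1, H2-Eb1, Xcr1, Ncr1, Klra8 and Sparc. The remaining genes of these lists, among them Ms4a1 and Lyz2, were not analysed here. Against Cd4-only cells 4 genes of these lists could be tested, and 1, Cd74 of the MHC class II list, was called lower and 0 higher. Over all genes 6.03% were called lower and 3.91% higher. Genes with too few UMIs for this comparison included Cd68, with 13.2 times the Cd4-only expectation (2.03 to 269), Tyrobp (19.2, 3.14 to 144) and Itgax (5.304, 1.10 to 58.3). Against Cd8-only cells Cd79b, Igkc, Itgax, Klrb1c and Klre1 were called lower and 0 higher. They were 2 of 3 tested B cell genes, 1 of 2 dendritic and MHC class II genes and 2 of 3 NK cell genes. Neither the 2 tested myeloid genes nor the 1 stromal and endothelial gene was called. Over all genes 7.2% were called lower and 4.18% higher. At unequal depth, a UMI of the B cell list was found in 17.8% of double-positive, 8.71% of Cd4-only and 16.8% of Cd8-only cells, and a UMI of the myeloid list in 4.91%, 0.332% and 3.78%. The part of such transcripts in the results was not tested.

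Genes of T cell state were counted in the same way. Over all genes, 3.91% were called higher and 6.03% lower than Cd4-only cells, and 4.18% higher and 7.2% lower than Cd8-only cells. Of 7 naive and homing genes, 1, the lymph node homing receptor Ccr7, was called higher than Cd4-only cells (2.13, 1.13 to 4.12, 3 of 5 libraries) and 0 were called against Cd8-only cells. Ccr7 changed sign without matching, to a log2 ratio of −1.22. Of 8 checkpoint genes, 1 was called higher than Cd4-only cells, Cd160 (4.37, 1.98 to 10.9), and 0 were called against Cd8-only cells. Lag3 was at 1.97 times the Cd4-only expectation (1.27 to 3.04), with a log2 ratio that fell from 0.96 to −0.34 without library 5, and Pdcd1, Havcr2, Entpd1 and Tox had 1 in both intervals. The summed checkpoint level was 828 CPM, against 725 and 736 CPM. Of 7 tested cytokine genes, 0 were called against Cd4-only cells and 3 were called higher than Cd8-only cells, namely Il10, Csf2 and Il3, the last from 8 UMIs in 1 cell. Ifng, the main effector cytokine of both lineages, was at 1.02 times the Cd4-only (0.880 to 1.18) and 0.971 times the Cd8-only expectation (0.861 to 1.09) and was found in 96 of the 163 cells.

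Some proliferation genes were lower than in single-gate cells of the same depth. Of 9 genes, 4 were called lower than Cd4-only cells (6.03% of all genes) and 3 lower than Cd8-only cells (7.2% of all genes), with median log2 ratios of −0.93 and −0.81, and 0 were called higher. Mki67 was at 0.358 (0.252 to 0.502) and 0.470 (0.340 to 0.638) of the expectations, and the mitotic kinase gene Cdk1 at 0.364 (0.188 to 0.666) and 0.346 (0.188 to 0.592). Against Cd4-only cells both were lower in 3 and higher in 2 of 5 libraries, and against Cd8-only cells lower in 4 and higher in 1. In libraries 1 and 3 Mki67 stood at 97.6 and 117 CPM in double-positive cells, against 29.6 and 15.1 CPM in Cd4-only cells. Without library 5 the log2 ratio of Mki67 to Cd4-only cells was −0.64 instead of −1.47, the gene was then not called, and 2 of the 9 genes were called lower than Cd4-only cells. A Mki67 UMI was found in 19.02% of double-positive cells, where 28.5% were expected from Cd8-only cells of the same libraries and depth, and 8.96% of all Cd8-only cells held one. This difference rested on the depth matching, since the summed levels were 709 CPM in double-positive, 731 CPM in Cd4-only and 703 CPM in Cd8-only cells, and matching by library alone left 0 of the 9 genes called in either comparison. Of 9 Treg genes, 7 were tested, of which 1 was called lower than Cd4-only (Izumo1r, against 6.03% of all genes) and 2 higher than Cd8-only cells, against 4.18% of all genes (Izumo1r and the chemokine receptor gene Ccr8, 2.74, 1.69 to 4.39). Foxp3 was 0 by the rule. Of 6 stress genes, 1, Atf3, was called higher than Cd8-only cells, a share to be read against the same 4.18%, and 0 were called against Cd4-only cells.

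Whether both programs were found within single cells was measured with a lineage index, the share of Cd8-side UMIs among the UMIs of 20 Cd4-side and 20 Cd8-side genes. The genes were chosen in every other cell of each single gate and the index was measured in the remaining cells. The coreceptor genes and Foxp3 were left out. The Cd8 side included Ccl5, Gzma, Ccl4 and Klrd1, and the Cd4 side included Tnfrsf4, Cd40lg, Maf and Areg. A cell needed 5 UMIs of the 40 genes, which 155 double-positive, 351 Cd4-only and 1669 Cd8-only cells reached. The sides were unequal in UMIs. Cd4-only cells held a mean of 6.06 Cd4-side and 4.59 Cd8-side UMIs, and Cd8-only cells 1.20 and 34.3. An even mix of both single gates could therefore have an index above 0.75, so such an index does not mark a Cd8-side cell by itself.

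Double-positive cells held a wide range of the index. In 13 cells it was below 0.25, in 43 between 0.25 and 0.75 and in 99 above 0.75, that is 8.39%, 27.7% (20.9 to 35.5) and 63.9%. For Cd4-only cells the same shares were 54.7%, 21.7% (17.5 to 26.3) and 23.6%, and for Cd8-only cells 2.16%, 4.61% (3.66 to 5.73) and 93.2%. The 23.6% of Cd4-only cells with an index above 0.75 limit this gate as a helper reference. At the same library and depth, 17.995% of matched cells were expected between the limits from Cd4-only (29.3% found, 21.4 to 38.1) and 6.25% from Cd8-only cells (27.3% found, 20.4 to 35.03). The excess over Cd8-only cells was the larger one. With every cell thinned to 1500 UMIs, the share was 23.4% (16.6 to 31.3) in double-positive, 28.4% (22.1 to 35.4) in Cd4-only and 4.73% (3.55 to 6.15) in Cd8-only cells, so that the order against Cd4-only cells turned and the excess over Cd8-only cells remained. Thinning left out 26, 410 and 1147 cells without enough UMIs. In libraries 1, 3, 4, 5 and 6 the share between the limits was 27.3%, 27.3%, 34.2%, 30.2% and 20% in double-positive cells and 3%, 5%, 3.45%, 5.24% and 5.35% in Cd8-only cells, which were lower in each. In Cd4-only cells it was 31.6%, 10.5%, 20.9%, 21.7% and 16.7%, which was above the double-positive share in library 1 and below it in the others.

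**Figure D4:**
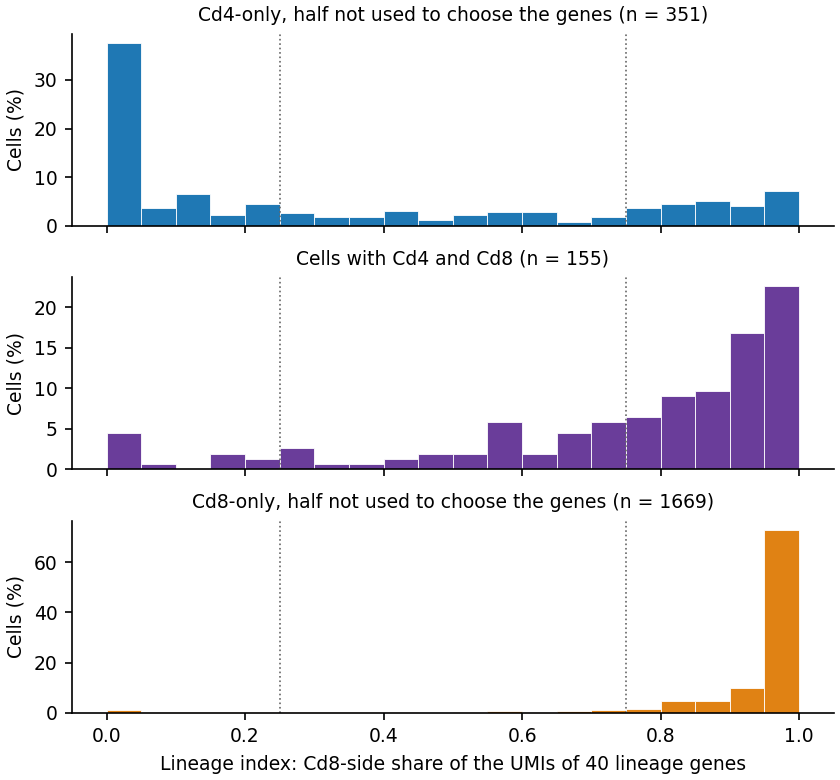
Distribution of the lineage index in bins of 0.05 for Cd4-only cells, double-positive cells and Cd8-only cells, as a share of cells with at least 5 UMIs of the 40 genes; dotted lines mark 0.25 and 0.75. Of 155 double-positive cells, 43 lie between the lines, while 93.2% of Cd8-only cells lie above 0.75. The Cd8-side genes hold more UMIs, so a mix of both programs can also lie above 0.75.

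Both programs were present by amount and not only by share. Double-positive cells held a mean of 8.28 Cd4-side and 42.1 Cd8-side UMIs, Cd4-only cells 6.06 and 4.59, and Cd8-only cells 1.20 and 34.3. These pooled means were taken at unequal depth, and in library 4 the Cd8-side mean was lower in double-positive (38.3) than in Cd8-only cells (60.3). At least 3 different genes of each side were seen in 89 double-positive cells (54.6%, 46.6 to 62.4), against 3.83% of Cd4-only (2.45 to 5.70) and 6.63% of Cd8-only cells (5.64 to 7.74). Matched by library and depth, 10.2% were expected from Cd4-only (50% found, 41.1 to 58.9) and 20.8% from Cd8-only cells (54.3% found, 46.3 to 62.2). For a single pair of genes, Cd40lg and Klrd1 were found together in 42 cells (25.8%, 19.2 to 33.2), against 5.31% of Cd4-only and 3.202% of Cd8-only cells. The expectations at matched depth were 7.84% (19.6% found, 13.3 to 27.2) and 9.72% (25.8% found).

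The number of T cell receptor β V segments per cell was measured next. The table held 25 Trbv segments, all on chromosome 6 of GRCm38. Since a read from 1 receptor could be counted for a near-identical neighbor, the last 60 bases of the V segments are shown for the Trbv13 subgroup, with Trbv13-2 in lower case and capitals marking the bases at which Trbv13-1 and Trbv13-3 differ from it, and, for contrast, for Trbv16 and Trbv3, shown in lower case only. The sequences are those of the GENCODE M21 transcripts, 5′ to 3′. All 5 segments are on the plus strand, Trbv13-2 at chr6:41121396-41121832, Trbv13-1 at chr6:41116007-41116468, Trbv13-3 at chr6:41130147-41130585, Trbv16 at chr6:41151740-41152230 and Trbv3 at chr6:41048290-41048828.
Trbv13-2: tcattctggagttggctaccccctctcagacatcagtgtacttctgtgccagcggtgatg
Trbv13-1: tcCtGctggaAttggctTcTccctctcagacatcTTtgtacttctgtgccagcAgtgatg
Trbv13-3: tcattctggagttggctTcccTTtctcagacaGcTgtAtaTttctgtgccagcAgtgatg
Trbv16: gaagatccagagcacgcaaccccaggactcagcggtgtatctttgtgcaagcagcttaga
Trbv3: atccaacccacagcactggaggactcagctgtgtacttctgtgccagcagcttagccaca
Trbv13-1 and Trbv13-3 each differed from Trbv13-2 at 8 of the 60 bases. The longest exact run shared with Trbv13-2 over the whole transcript was 34 bases for Trbv13-1, 50 for Trbv13-3, 9 for Trbv16 and 18 for Trbv3. Of the 300 pairs of segments, 2 shared a run of at least 50 bases, with a median run of 11 bases, so that long shared runs were limited to 2 pairs. Counts within Trbv13 and Trbv12 are therefore uncertain between members.

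More double-positive than single-gate cells held several V segments. At least 2 Trbv segments were found in 105 of 163 cells, or 64.4% (56.6 to 71.7), against 264 of 1205 Cd4-only (21.9%, 19.6 to 24.4) and 1126 of 4497 Cd8-only cells (25.04%, 23.8 to 26.3). At least 3 were found in 35.6% (28.3 to 43.4), against 5.06% and 5.98%. A single segment was found in 48 double-positive cells (29.4%). In libraries 1, 3, 4, 5 and 6 the share with 2 or more was 60.9%, 33.3%, 59.0%, 67.4% and 78.6%, compared with 20%, 12.2%, 25.2%, 29.7% and 15.4% in Cd4-only and 21.5%, 17.4%, 28.4%, 37.1% and 24.4% in Cd8-only cells. Double-positive cells were highest in each of these libraries, although in library 3 the interval on its 12 cells (9.92 to 65.1) held the values of both other gates.

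**Figure D5:**
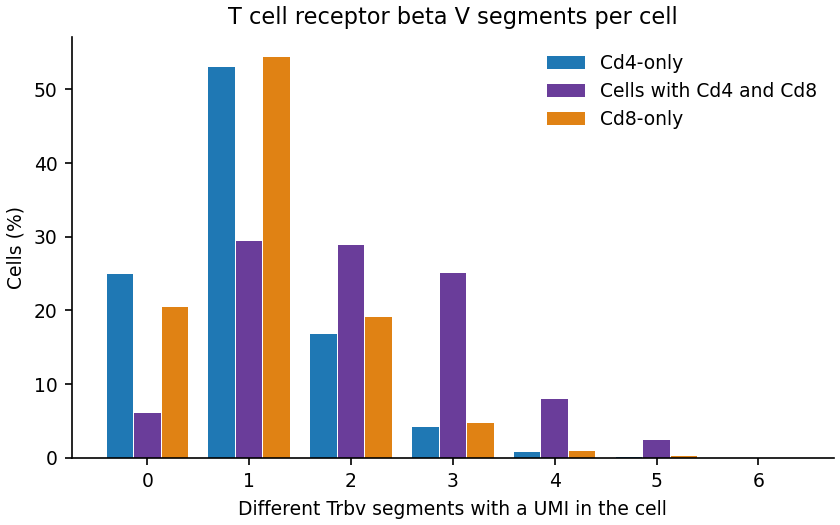
Share of cells by the number of different Trbv segments with at least 1 UMI, for Cd4-only, double-positive and Cd8-only cells. A single segment is most common in both single gates (53.1% and 54.4%), while 64.4% of double-positive cells hold 2 or more.

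The difference was smaller at matched depth. At the same library and depth, 42.2% of cells were expected to hold 2 or more segments from Cd4-only cells, where 60.1% were found (51.5 to 68.4), and 50.5% from Cd8-only cells, where 64.4% were found (56.6 to 71.7). The excess was 17.97 and 13.9 percentage points, and the latter was 8.51 points without library 6, with an interval that included 0 (−0.793 to 17.3). Intervals on excesses took the expected share as fixed. For 3 or more segments, 13.05% were expected from Cd4-only (32.6% found, 24.9 to 41.1) and 19.7% from Cd8-only cells (35.6% found, 28.3 to 43.4). With every cell thinned to 1500 UMIs, 35.3% of 156 double-positive cells held 2 or more (27.8 to 43.3), against 19.3% of 654 Cd4-only (16.3 to 22.5) and 21.2% of 2626 Cd8-only cells (19.7 to 22.8); thinning left out 7, 551 and 1871 shallower cells. With segments of a subgroup counted as 1, the double-positive share was 63.8%.

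The second segment also held more UMIs. In double-positive cells with 2 or more segments, the first segment had a median of 4 UMIs and the second a median of 2, against 3 and 1 in both single gates. Among cells with at least 5 Trbv UMIs, the leading segment held under 80% of them in 66 of 89 double-positive cells (74.2%, 63.8 to 82.9), in 31.2% of 253 Cd4-only (25.6 to 37.3) and in 31.8% of 1087 Cd8-only cells (29.1 to 34.7). This measure was added after the segment counts were seen, and neither it nor the medians were matched for depth. At matched library and depth, at least 2 segments with at least 2 UMIs each were counted. They were found in 30.4% of cells (22.9 to 38.8), where 18.9% were expected from Cd4-only cells. For Cd8-only cells, 35.6% were found (28.3 to 43.4) and 25.1% were expected. The 47 cells with exactly 2 segments held 44 different pairs, and no pair was found in more than 2 cells. In 1 of the 47 cells both segments were of 1 subgroup. Trbv13-2 was the segment seen in most double-positive cells (20.9%, against 15.8% of Cd4-only and 12.5% of Cd8-only cells), followed by Trbv3 (18.4%), Trbv12-2 (15.95%) and Trbv16 (15.3%). For the α chain, 29.4% of double-positive cells held 2 or more Trav segments (22.6 to 37.1), and the 24.1% expected from Cd8-only cells at the same depth lay inside this interval, while 20.9% were expected from Cd4-only cells, where 29.7% were found (22.2 to 38.1). Many T cells rearrange both α alleles, so this count is the less specific one. Cells with 3 or more Trav segments were also counted at matched library and depth. They were 10 of 163 double-positive cells (6.13%, 2.98 to 10.99), where 6.97% were expected from Cd8-only cells. Against Cd4-only cells, 5.797% were found (2.54 to 11.1) and 2.88% were expected. Both expectations lay inside the intervals, so an excess in this count was not detectable.

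The segment number and the lineage index were then set side by side. The index was between 0.25 and 0.75 in 29 of 105 cells with 2 or more segments (27.6%, 19.3 to 37.2) and in 12 of 41 cells with 1 segment and enough UMIs (29.3%, 16.1 to 45.5), so that a difference was not detectable. The share with 2 or more segments was 46.2% of the 13 cells with an index below 0.25 (19.2 to 74.9), 67.4% of the 43 between (51.5 to 80.9) and 70.7% of the 99 above (60.7 to 79.4), with intervals that overlapped. Since a mix of both programs can also have an index above 0.75, these comparisons do not set mixed cells against all others. Trbv17 is 1 of the 20 Cd8-side genes, so the measures share this gene. The 12 cells with a single segment and an intermediate index came from libraries 1, 3, 4, 5 and 6 with 1, 2, 5, 3 and 1 cells, and had from 946 to 6519 UMIs (median 3283). Their median was 2.5 Trbv UMIs and 4 of them had 1 Trbv UMI, a depth at which a second segment could be missed.

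A stricter gate moved these values. The 33 cells with 2 or more UMIs of each coreceptor had a median of 5807 UMIs, and 29 of them (87.9%, 71.8 to 96.6) held at least 2 Trbv segments. Their index was intermediate in 36.4% (20.4 to 54.9). The 31 cells with 1 Cd4 and 1 Cd8 UMI had a median of 2663 UMIs, 35.5% of them held 2 or more segments (19.2 to 54.6), and the index was intermediate in 36.0% (17.97 to 57.5). The share with several segments was thus higher where both coreceptor UMIs and depth were higher. At matched library and depth, the stricter gate had an excess of 35.5 points over Cd4-only (16.6 to 46.1) and 24.5 over Cd8-only cells (8.44 to 33.2). The main gate had 17.97 (9.29 to 26.2) and 13.9 points (6.01 to 21.2), with intervals that overlapped those of the stricter gate. All of these intervals leave out the counting error of the single-gate cells. How far coreceptor UMIs and depth each contributed was not tested. Among the 16 cells with Cd8a and no Cd8b1 it was 56.3% (29.9 to 80.2), against 65.3% (57.0 to 73.0) of the 147 with Cd8b1. Whether a barcode held 1 cell or more was not tested, and no doublet caller was run.

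Il10, the gene of an immunosuppressive cytokine, was examined because the study asks which conventional T cells produce it when Treg cells are removed. Double-positive cells held 21 of the 158 Il10 UMIs of the pool (13.3%, 8.42 to 19.6) and 3.33% of all UMIs. The 21 UMIs lay in 6 cells, 3 of library 4 with 4, 3 and 2 UMIs, 2 of library 5 with 6 and 5 UMIs and 1 of library 6 with 1 UMI, and libraries 1, 2 and 3 had none. These 6 cells were deep, with 4672 to 7345 UMIs. At matched library and depth, Il10 was 1.48 times the Cd4-only expectation (0.774 to 2.80) and 19.5 times the Cd8-only expectation (9.14 to 43.5), the latter from 1.02 UMIs expected. The ratio to Cd8-only cells was 69.1 without library 3, 13.01 without library 4 and 9.79 without library 5, and the log2 ratio to Cd4-only cells of 0.55 became −0.35 without library 5. By cells, 3.68% held Il10 (1.36 to 7.84), against 0.996% of Cd4-only and 0.423% of Cd8-only cells. At matched depth 4.07% were expected from Cd4-only cells, where 3.62% were found, and 0.726% from Cd8-only cells, where 3.68% were found.

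The Il10 cells did not share 1 profile. Their lineage index was 0.964, 0 and 0.0538 in library 4, 0.642 and 0.911 in library 5 and 1 in library 6, so that 2 lay below 0.25, 3 above 0.75 and 1 between. They held 2, 1, 3, 4, 5 and 3 Trbv segments in the same order, that is 2 or more in 5 of 6 cells. The cell with 1 segment held 23 Il13 UMIs, 1 Cd4 UMI and 1 Cd8 UMI. Csf2, the gene of GM-CSF, also rested on few cells. Its 173 UMIs came from 12 cells, and its log2 ratio to Cd8-only cells of 1.36 became −2.92 without library 4 and 3.46 without library 5.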

How the data were processed

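The authors deposited 1 table of raw UMI counts per gene and cell (14597 genes, 12818 cells, 21816565 UMIs), made with Cell Ranger and Seurat per the labels. By the study's methods, cells had 200 to 2500 genes and under 5% mitochondrial UMIs. The labels list mm9 and the methods mm10. Positions and Trbv sequences came from GENCODE M21 (GRCm38), matched by symbol. No doublet caller is named in the sources used here, and none was run.

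The members, gene lists and tests were chosen with earlier results of these data known. Cells were gated by UMIs. Libraries held 1916305 to 5127776 UMIs. Genes with at least 20 UMIs over matched double-positive and single-gate cells were tested, and bins needed 3 cells of each single gate. Log2 ratios had 0.5 UMIs added to both sides, and 2-fold was called. Named genes were those of the lists, and by size the 10 highest and lowest with the same direction in the 5 libraries with at least 10 double-positive cells, up to 10 beyond both gates and the lineage index genes, which needed 100 UMIs and 1 direction in libraries with 20 cells of each gate. Intervals (95%, exact binomial, Poisson, or conditional binomial for ratios) cover counting error only, and 0 UMIs were read as up to 3. Intervals on excesses in points take the share expected from single-gate cells as fixed. Python 3.11.15, numpy 2.4.6 and scipy 1.17.1 were used. The matching was checked on Cd8-only cells with known changes put into genes of high UMI counts. That check did not cover 2-fold calls in genes near 20 UMIs or Cd4-only cells as the comparison. Alternatives were other gates, depth bins, count minimums, index sizes, segment rules, thinning and leaving out each library. Some items of the lists are not reported here.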

Additional observations from a re-analysis of the deposited data

How the results depend on the processing

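No paired analysis was possible because the cells carry a library number that no label links to a sample. With 2 or more UMIs of each coreceptor required, the share of double-positive cells was 0.257%, the median 5807 UMIs, the genes called against Cd8-only cells 1772, the genes beyond both gates 1437, the intermediate index share 36.4%, the share with 2 or more Trbv segments 87.9%, its excess 35.5 and 24.5 points over Cd4-only and Cd8-only cells, the Il10 UMIs 8 and the Il10 ratio to Cd8-only cells 112. Leaving out 1 library at a time gave shares of 1.08 to 1.59% (highest without library 2), medians of 3818 to 4531 UMIs, 684 to 810 and 1089 to 1295 called genes, 740 to 947 genes beyond both gates, intermediate shares of 25 to 35.96% (highest without library 5), Trbv shares of 59.5 to 66.9% with excesses of 14.7 to 20.7 and 8.51 to 15.9 points, 10 to 21 Il10 UMIs (12 without library 4, 10 without library 5) and Il10 ratios of 9.79 to 69.1 (highest without library 3).

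With under 2000 genes per cell the share of double-positive cells was 1.03%. With libraries but no depth bins the Trbv excess was 42.2 and 36.5 points. With no matching it was 42.5 and 39.4 points, and 509 genes were called against Cd4-only cells. A minimum of 50 UMIs left 265 and 582 called genes and 349 beyond both; with no minimum these were 2922, 2489 and 2817. Requiring 2 UMIs per segment gave 35.6% of cells with several segments, and thinning to 1500 UMIs, added after seeing the data, gave 35.3%. Of 2571 ratios and counts of single genes and lists, 2133 moved by less than 0.5 log2 units or 1.5 times, 432 moved further and 6 called ratios reversed. Reversed log2 ratios to Cd8-only cells were those of Gm14295 (−1.15) and Spp1 (−2.65) under the stricter gate, Csf2 (−2.92, to 3.46 without library 5) and Serpinb9b (−0.22, to 1.42 without library 1) without library 4 and Muc1 (−1.98, to 1.97 without library 4) without library 5, and to Cd4-only cells that of Ccr7 (−1.22) with no matching. The cause was not tested.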
